A study of Apis mellifera with 18 samples.

Results

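The brain was compared with the ventriculus, the midgut in which a bee digests its food, in workers of the western honey bee (Apis mellifera) from a single colony, Colony 36. The comparison took the Brain and Ventriculus libraries of the patrilines P1, P7, P8, P11 and P24, paired by patriline, which are 10 of the 18 RNA sequencing libraries of the study. A patriline is a group of sisters with the same father. Each library held the organs of 5 workers of 1 patriline, pooled in equal RNA amounts per bee, and the brains and ventriculi of a patriline came from the same bees. All of these workers had received the same treatment. They were collected at 7 days of age, fed clothianidin, a neonicotinoid insecticide, at 4.27 ppb in 50% sucrose solution, and frozen 24 h after that feeder was removed. The tissue difference below is therefore that of exposed workers, and no unexposed worker entered it. The patrilines that the study called tolerant and susceptible were pooled, and the pair of libraries from P21 was left out, whose brain pool showed transcripts of the Malpighian tubules, the excretory organs, at a median of 15.4% of their tubule level, against 0.376% to 0.543% in the 5 brains used. The question was which transcripts separate the organ that the insecticide acts on from an organ that meets it first with the food.

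Neurons signal through receptors that open an ion channel when a transmitter binds, and in insects the main excitatory transmitter of the brain is acetylcholine. Its nicotinic receptors are the target of neonicotinoids. The ventriculus epithelium secretes peptidases and carbohydrases, absorbs what they release, and carries cytochromes P450, enzymes that oxidise hormones, plant toxins and insecticides.

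The libraries held between 40403232 and 51605747 counts in the brain and between 60513011 and 87946924 in the ventriculus. All 5 ventriculus libraries thus held more assigned counts than the brain library of the same patriline. The exact two-sided sign-flip test gave p = 0.0625, the smallest p that 5 pairs allow. With the uncounted fragments included, the brain library was the larger in 4 of 5 pairs (exact p = 0.125). Fragments that matched more than 1 transcript or gene were counted on none, and this ambiguous class took 47.9% ± 3.33 (SD, n = 5) of fragments in the brain and 32.1% ± 0.734 in the ventriculus (exact p = 0.0625). The brain library of P11 stood apart from the other brains. Transcripts of the major royal jelly proteins, which worker bees secrete from the hypopharyngeal glands of the head, took 28.1% of its counts, against 0.856% to 3.97% in the other brains, and in the 5 ventriculus libraries they took at most 0.0238%. Traces of the other organ were measured on transcripts abundant in one organ and at 5% or less of that level in the other by medians, so that low values follow in part from the choice: 86 ventriculus transcripts lay in the 5 brains at a median of 0.162% to 0.271% of their ventriculus level, and 177 brain transcripts lay in the ventriculus libraries at 0.601% to 0.969% of their brain level.

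A large part of the transcriptome differed between the organs. Of 28396 features in the files, 9955 had enough counts to be tested, from 8532 genes, and 7946 of them (79.8%) passed an adjusted p of 0.05 in the paired edgeR quasi-likelihood test. Of these, 4291 (43.1% of those tested) were higher in the brain and 3655 (36.7%) higher in the ventriculus, and 5540 (55.7%) also differed by more than 2-fold, 3306 (33.2%) with the brain higher and 2234 (22.4%) with the ventriculus higher. Differences are given as logFC, the log2 of the brain level over the ventriculus level, so that values above 0 are higher in the brain. The median logFC of all transcripts tested was 0.15. The count filter asked for enough unscaled counts in as many libraries as 1 organ has. A transcript counted in 1 organ alone could thus be tested, and its direction then follows in part from the filter. The lowest of 5 libraries of an organ lay above the highest of the other organ for 6837 transcripts (68.7%), with the brain above for 3710 (37.3%) and the ventriculus above for 3127 (31.4%). Most of the differences were moderate, but 711 transcripts were called at a logFC above 5 and 330 at a logFC below −5. Samples of 1 organ lay close together, since the first principal component, which separated brain from ventriculus, held 90.3% of the variance, and the second, which set both libraries of P11 apart from the rest, held 3.13%.

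**Figure D1:**
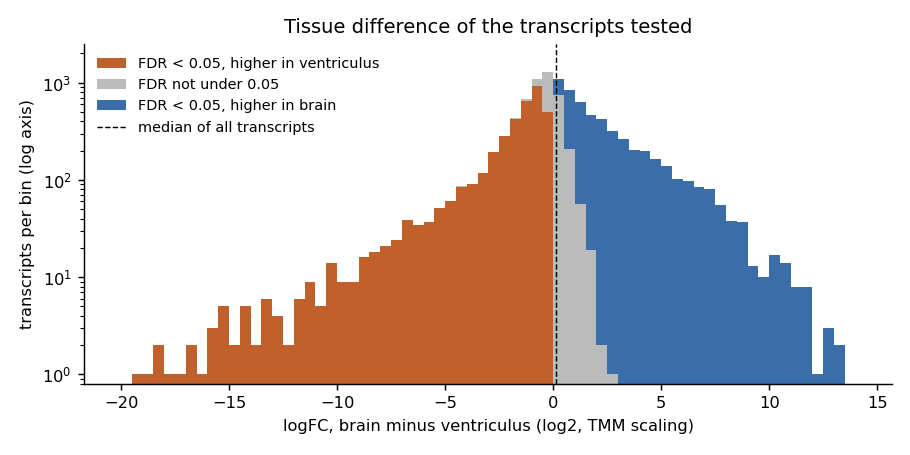
Number of transcripts (log axis, bins of 0.5) against logFC, brain minus ventriculus, for the 9955 transcripts tested, coloured by the call of the edgeR test. The dashed line is the median of 0.15, and the ventriculus side runs further from 0, to a logFC of −19.13 for LOC724199.

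The split between the directions depended on the scaling, and a few transcripts filled the ventriculus libraries. Levels below are CPM, a library's counts scaled to a common total, after normalization by TMM, which assumes that most transcripts do not differ. The 20 most abundant transcripts of a library took 57.1% ± 2.26 of counts in the ventriculus and 28.9% ± 10.4 in the brain (SD, n = 5). With counts divided by the library size only, the median logFC of all transcripts rose by 1.74, and 7879 transcripts were called higher in the brain and 930 in the ventriculus, so that the brain held 89.4% of the calls instead of 54.0%. Transcripts within about 1.74 of 0 on the ventriculus side therefore have no direction that holds under both scalings, and this is said where such a gene is named.

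Digestive enzymes and a gene without a name took a large share of the ventriculus counts. LOC724199, a protein-coding gene without a name in the sources used here, took 15.9% ± 1.18 of all ventriculus counts, and its level was 312315, 316945, 296883, 224772 and 311157 CPM in P1, P7, P8, P11 and P24, the order used for all values by library. In the brains it lay between 0.354 and 0.636 CPM. Every ventriculus library was thus more than 5 orders of magnitude above every brain library, at a logFC of −19.13 (SE 0.72, adjusted p = 9.3e-07). The next transcript by share was Hbg2, an alpha-glucosidase that splits sucrose and related sugars, with 5.31% of ventriculus counts. Its level was 111713, 81664, 103767, 61554 and 134284 CPM in the ventriculus and 1.11, 2.14, 1.62, 13.02 and 1.19 CPM in the brain, where P11 was the highest. The logFC was −15.49 (SE 1.15, adjusted p = 1.8e-05), and −16.09 without P11. A second gene of this family, AGLU2, also called Hbg1, behaved in the same direction with a much higher floor in the brain. It measured 65948, 55798, 71154, 50950 and 79493 CPM in the ventriculus and 174 to 335 CPM in the brains (logFC −8.01, SE 0.37, adjusted p = 2.2e-06). The third, Hbg3, went the other way. Hbg3 is the alpha-glucosidase of the hypopharyngeal glands, with which foragers convert nectar to honey, and it measured 577, 364, 994, 6904 and 418 CPM in the brain pools against 57.2 to 110 CPM in the ventriculus (logFC 3.36, SE 0.65, adjusted p = 0.0024). Its highest value stood in the library with the most royal jelly RNA, P11. LOC726352 and LOC410894, 2 more protein-coding genes without names, took 3.63% and 3.45% of ventriculus counts at logFC −16.02 and −14.13.

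Peptidases were the other large group. The list held 8 genes that the study names as peptidases among those it picked from the Malpighian tubules of these workers, so that its direction is no independent evidence. All 8 were tested, 6 were higher in the ventriculus and 1 in the brain, against 36.7% and 43.1% of all transcripts. The median logFC was −12.46 against 0.15 for all transcripts. Aminopeptidase N (LOC551180), which takes single residues off the end of dietary peptides, measured 32698, 30803, 31696, 23480 and 39638 CPM in the ventriculus. In the brains it measured 0.736 to 0.970 CPM, which gave a logFC of −15.17 (SE 0.33, adjusted p = 1.7e-07). Serine protease 53 (LOC724308) was as even across patrilines, at 29207, 26436, 26227, 29742 and 25510 CPM in the ventriculus against 0.873 to 1.84 CPM in the brain (logFC −14.34, SE 0.37, adjusted p = 2.5e-07). Trypsin (LOC408534), which cuts proteins after basic residues, reached 3655 to 6001 CPM in the ventriculus and at most 0.452 CPM in the brain (logFC −14.30). A second aminopeptidase N, LOC551224, was scarcer, at 108 to 167 CPM against 0.0589 CPM or less (logFC −11.82), and the putative serine protease K12H4.7 (LOC410729) measured 875 to 1243 CPM against 0.376 to 1.35 CPM (logFC −10.26). Caspase-3 (LOC411381), named for the protease that dismantles cells in apoptosis, stood at 4774, 5341, 4738, 4327 and 5201 CPM in the ventriculus and 0.318 to 0.735 CPM in the brain (logFC −13.10, SE 0.37, adjusted p = 3.3e-07). The exceptions were the endothelin-converting enzyme homolog (LOC408500), a membrane metallopeptidase that was higher in the brain at a logFC of 2.67, and the disintegrin and metalloproteinase 10-like gene (LOC410609), at 6.20 to 9.30 CPM in the brain and 1.98 to 10.3 CPM in the ventriculus, which did not pass (adjusted p = 0.24). A chymotrypsin inhibitor (LOC725202) was abundant in the same organ as the peptidases, at 4776 to 6748 CPM, and in the brains it measured 2.12 to 8.24 CPM apart from 75.7 CPM in P11 (logFC −9.97, and −10.63 without P11).

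**Figure D2:**
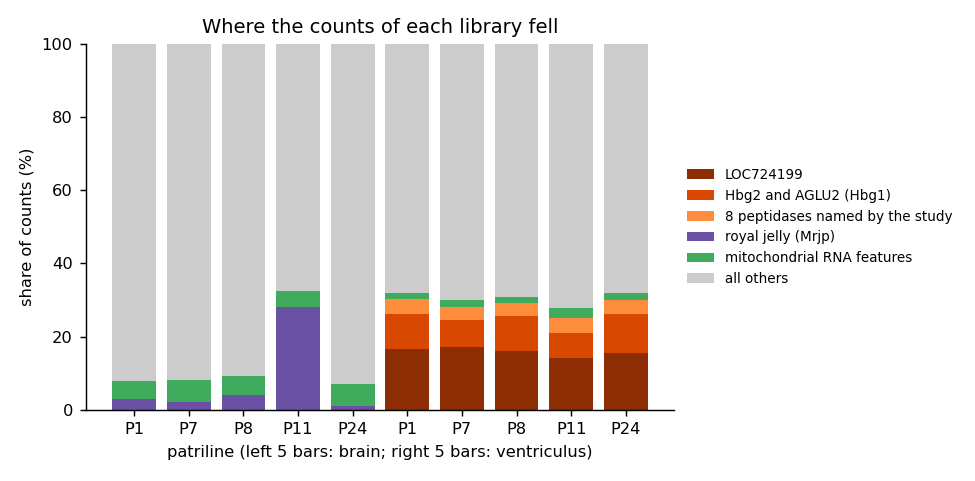
Share of all counts (%) that fell on each group of transcripts in the 10 libraries, the 5 brains on the left and the 5 ventriculus libraries on the right, as stacked bars. LOC724199 and the pair of alpha-glucosidases are the 2 lowest blocks of each ventriculus bar, with 14.1% to 17.04% and 7.04% to 10.7% of counts, and royal jelly transcripts fill 28.1% of the brain library of P11.

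Regulators were also among the named genes with the largest differences. A zinc finger BED domain protein (LOC100576136) had 45.5 to 72.3 CPM in the ventriculus and 0 counts in the 5 brains, and was at least 8076-fold higher in the ventriculus with a floor of 3 counts over the group. The homeobox protein Nkx-2.8 (LOC725671), of a family of developmental transcription factors, measured 118, 76.3, 103, 50.4 and 77.8 CPM against 0.0220 CPM or less (logFC −12.89, SE 0.28, adjusted p = 1.7e-07). A cGMP-dependent protein kinase (LOC551714), which acts downstream of cyclic GMP, measured 1567 to 1976 CPM against 0.121 to 0.330 CPM (logFC −12.92). These names come from the annotation of the study, made for genes picked in the tubules, and most other genes with such differences have no name here.

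The 3 SOX transcription factors, which regulate the fate of stem and progenitor cells in many animals, were higher in the ventriculus. Sox-2 (LOC408411) measured 244, 188, 214, 140 and 304 CPM in the ventriculus and 28.2, 22.7, 23.3, 18.5 and 33.2 CPM in the brain. Both organs ordered the patrilines in the same way, from P24 through P1, P8 and P7 down to P11, and the logFC was −3.10 with an SE of 0.07 (adjusted p = 1.7e-07). Sox-21-B (LOC726150) had a logFC of −2.68, with 7.18 to 17.04 CPM against 1.08 to 3.07 CPM, and Sox-13 (LOC408884) a logFC of −5.81, with 1.03 to 3.14 CPM against 0.0854 CPM or less. The list came from the genes the study picked, as above, and for Sox-13 the sum over its 3 transcripts gave a logFC of −0.25 (adjusted p = 0.051). The sodium/potassium/calcium exchanger 3 (LOC412316), an ion transporter, measured 538, 576, 524, 489 and 650 CPM in the ventriculus and 19.3 to 20.7 CPM in the brain (logFC −4.79, SE 0.09, adjusted p = 1.4e-07). Vha16, a subunit of the proton pump that acidifies vesicles and energises gut membranes, measured 2648 to 3116 CPM in the ventriculus and 549 to 604 CPM in the brain (logFC −2.30, SE 0.11, adjusted p = 2.3e-06).

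Receptors of the brain showed the reverse picture. Of 16 genes for subunits of ligand-gated ion channels, 11 were tested, and 10 of these were higher in the brain, with a median logFC of 5.27 against 0.15 for all transcripts, where 43.1% were called higher in the brain. Of these 10, nAChRb1, nAChRa4, Nmdar1 and LCCH3, with few ventriculus counts, entered the test through the brain alone. Their direction, and part of this count, therefore follows from the count filter. The nicotinic subunit nAChRb1 measured 95.2, 73.3, 71.6, 41.8 and 51.6 CPM in the brains. In the ventriculus it had 6 counts in all, in P7, P11 and P24, and 0 in P1 and P8, so that no library of an organ came near the other (logFC 10.97, SE 0.40, adjusted p = 8.4e-07, and 11.81 without P11). The subunit nAChRa1 had 353, 242, 293, 176 and 375 CPM in the brain and 5.87, 4.95, 10.1, 4.81 and 13.4 CPM in the ventriculus (logFC 5.27, SE 0.20, adjusted p = 1.1e-06). Of the other nicotinic subunits, nAChRa4 had 0.260 to 0.573 CPM in the brain and 1 count in all in the ventriculus, a ratio of 82.2 with an exact counting interval of 14.8 to 3248, and nAChRa3 had 0.974 to 2.02 CPM against 0.136 to 0.502 CPM (logFC 2.68, adjusted p = 9.9e-04). For nAChRa9 the levels were 6.86 to 11.8 CPM in the brain and 0.361 to 2.76 CPM in the ventriculus (logFC 2.66), and for nAChRb2 they were 1.81 to 4.00 CPM and 0.297 to 1.41 CPM (logFC 1.76, adjusted p = 0.0046). All 6 of these subunits were thus higher in each brain than in any ventriculus library, which held for 37.3% of all transcripts tested. Among channels for other transmitters, Hiscl1, a chloride channel opened by histamine, the transmitter of insect photoreceptors, measured 83.5, 69.2, 70.8, 83.7 and 109 CPM in the brain and 0.604 CPM or less in the ventriculus (logFC 8.18). Nmdar1, the obligate subunit of NMDA-type glutamate receptors, had 8.88 to 10.6 CPM in the brain and 4 counts in all in the ventriculus (logFC 8.82, and 9.42 without P24), and LCCH3, a GABA receptor subunit, had 4.85 to 9.97 CPM against 0.0792 CPM or less (logFC 7.28). The exception was pHCl, a chloride channel gated by pH, at 0.574 to 0.805 CPM in the brain and 1.01 to 1.69 CPM in the ventriculus, a logFC of −0.89 with TMM that became 0.86 with the library size only. It has 28 transcripts in the files, and their sum did not pass (adjusted p = 0.12). Subunits nAChRa2, nAChRa6, nAChRa7 and nAChRa8 and the glutamate-gated GluCl had too few counts to be tested.

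Receptors for biogenic amines and glutamate that act through G proteins were mostly higher in the brain. Of 11 genes 9 were tested and 8 were higher in the brain, against 43.1% of all transcripts, with a median logFC of 4.25. The octopamine receptor Oa1, for the insect counterpart of noradrenaline, was the steadiest of them. It measured 121, 128, 138, 97.6 and 153 CPM in the brain and 4.41, 6.21, 4.75, 3.96 and 5.45 CPM in the ventriculus (logFC 4.69, SE 0.10, adjusted p = 1.6e-07). Dopamine receptor Dop1 had 93.4, 79.1, 85.9, 44.5 and 75.2 CPM in the brain and 2.76 to 3.13 CPM in the ventriculus (logFC 4.61, SE 0.18), and the tyramine receptor TyrR had 36.1 to 86.2 CPM against 5.78 to 10.8 CPM (logFC 3.18). A second dopamine receptor, DopR2, was nearly absent from the ventriculus counts, with 2.27 to 5.93 CPM in the brain and 4 counts in all in the ventriculus (logFC 7.64). It entered the test through the brain alone, so the count of 8 follows in part from the filter.

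Genes for the synapse were mostly higher in the brain. AChE-2, an acetylcholinesterase, the enzyme that clears acetylcholine from the synapse and the target of organophosphate insecticides, measured 2178, 1953, 2002, 970 and 2862 CPM in the brain. In the ventriculus it measured 7.00, 4.75, 4.80, 3.41 and 4.85 CPM (logFC 8.60, SE 0.22, adjusted p = 2.5e-07). P11 was the lowest library in both organs. Of the 15 genes of the synapse list 11 were tested and 8 were higher in the brain, against 43.1% of all transcripts. The median logFC was 4.29. Gat-1B and Eaat-2, with 0 and 2 ventriculus counts, entered the test through the brain alone, so this count follows in part from the filter. Neurexin Nrx-1 and neuroligin NLG-3, adhesion proteins that face each other across the synaptic cleft, differed by logFC 3.09 and 4.75. Nrx-1 varied among the ventriculus libraries, at 4.77, 4.80, 11.9, 15.1 and 37.0 CPM against 59.0 to 121 CPM in the brain, while NLG-3 did not, at 1.08 to 1.66 CPM against 25.8 to 45.9 CPM. The scaffold of the presynaptic active zone, brp, measured 2.85 to 8.19 CPM in the brain and 0.212 to 0.422 CPM in the ventriculus (logFC 4.29), and TyHyd, tyrosine hydroxylase, which makes the precursor of dopamine, 13.7 to 18.1 CPM and 0.273 to 2.01 CPM (logFC 4.17). Transporters that take transmitters up after release had few counts in the ventriculus. The GABA transporter Gat-1B had 4.94, 3.10, 4.08, 3.37 and 4.24 CPM in the brain and 0 counts in the 5 ventriculus libraries, at least 259-fold higher in the brain with a floor of 3 counts over the group. The glutamate transporter Eaat-2, carried by glia in Drosophila melanogaster, had 2.84 to 6.48 CPM and 2 ventriculus counts, a ratio of 451 with an exact counting interval of 125 to 3721. The exceptions were genes of vesicle release. Syntaxin Syx1A had 3.11 to 4.55 CPM in the brain and 5.41 to 8.61 CPM in the ventriculus, at a logFC of −1.03 with TMM and 0.71 with the library size only, and its counts come from 1 of 12 transcripts. The synaptotagmins Syt1 and Syt20 had logFC of −1.08 and −0.72 with adjusted p of 0.084 and 0.10, and passed without P11, at −1.36 and −1.06 (Syt1 also without P7, at −1.41), with library size only giving 0.64 and 1.01. Syt1 also passed in the likelihood ratio test (−1.08, adjusted p = 0.048).

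**Figure D3:**
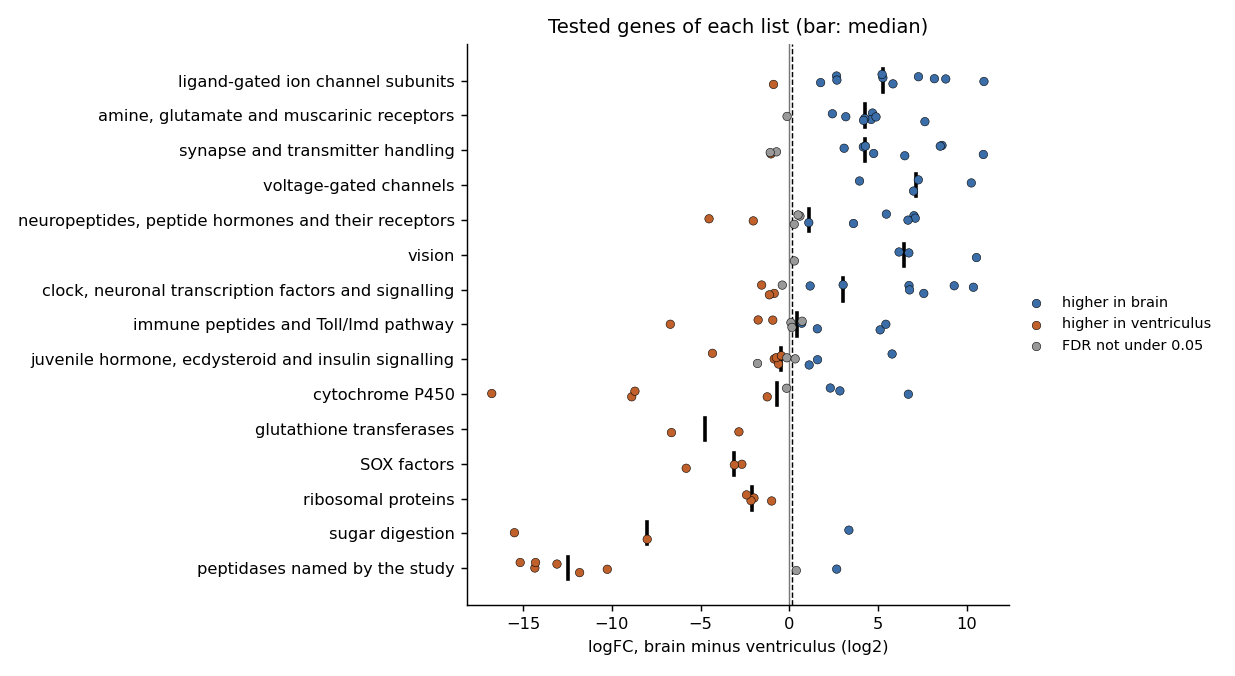
LogFC, brain minus ventriculus, of each tested gene (points, coloured by the call of the edgeR test) in 15 lists, with the list median as a bar, a grey line at 0 and the median of all transcripts, 0.15, as a dashed line. The receptor, synapse and channel lists lie mostly to the right and the peptidases mostly below −10.

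Voltage-gated channels, which carry the action potential and open calcium entry at the synapse, had 8 listed genes. Only 4 had enough counts, and those 4 were higher in the brain, against 43.1% of all transcripts, with a median logFC of 7.14. Genes counted in the brain alone could pass the count filter, which then set their direction in part, as holds for Cac below. Cac, the pore of a presynaptic calcium channel, had 20.4, 14.3, 16.1, 8.46 and 15.5 CPM in the brain and 2 counts in all in the ventriculus, a ratio of 1507 with an exact counting interval of 417 to 12440. LOC551454, annotated as a calcium channel alpha2-delta subunit, had 111 to 187 CPM in the brain and 0.445, 4.08, 0.273, 3.80 and 0.300 CPM in the ventriculus, where P7 and P11 were the higher libraries (logFC 7.00, and 7.72 without P7). Para, the sodium channel that pyrethroids bind, was not tested, because too few fragments were assigned to any of its transcripts.

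Signalling inside neurons followed in part. Of 15 genes on the list of clock, neuronal transcription factor and signalling genes 11 were tested. Of these 7 were higher in the brain and 3 in the ventriculus, against 43.1% and 36.7% of all transcripts, with a median logFC of 3.03. NOS, the synthase of nitric oxide, a gas that acts as a messenger between neurons, measured 232, 208, 226, 160 and 197 CPM in the brain against 1.38 to 2.48 CPM (logFC 6.74, SE 0.22, adjusted p = 5.9e-07). Its receptor subunit sGC-alpha1, of the guanylyl cyclase that nitric oxide activates, measured 177, 154, 160, 103 and 149 CPM in the brain and 0.0273 to 0.264 CPM in the ventriculus (logFC 10.38, SE 0.43, and 11.15 without P11), while another cyclase subunit, sGCbeta-3, had a logFC of 3.03. Ac3, an adenylyl cyclase, and Pkc, protein kinase C, differed by logFC 9.29 and 7.58, each with at most 0.211 CPM in the ventriculus. Cdk5, a kinase of neurons that other cells also use, differed little but evenly, with 85.2 to 101 CPM against 37.4 to 45.2 CPM (logFC 1.17, SE 0.08, adjusted p = 9.8e-06). On the other side, For, the cGMP-dependent kinase whose expression follows the change from nursing to foraging, had 2.66 to 4.09 CPM in the brain and 5.05 to 8.64 CPM in the ventriculus, a logFC of −1.12 with TMM and 0.62 with the library size only. Mblk-1, named for its expression in the mushroom bodies, had 24.8 to 39.8 CPM in the brain and 31.1 to 92.4 CPM in the ventriculus, with a logFC of −0.85 that likewise became 0.89 with the library size only. The third was the transcription factor Foxp, at a logFC of −1.56 (adjusted p = 4.8e-04), which was 0.19 with the library size only (adjusted p = 0.63).

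Neuropeptides, which insects release from neurons and from secretory cells of the gut, were called in both directions. Of 15 genes 11 were tested, 6 were higher in the brain and 2 higher in the ventriculus, with a median logFC of 1.10, against 43.1% and 36.7% of all transcripts, and with the library size only these counts were 9 and 1. The receptor SIFR, for the peptide SIFamide, measured 150, 118, 139, 84.4 and 156 CPM in the brain and 0.361 to 2.53 CPM in the ventriculus (logFC 7.02, SE 0.60). These are levels of 1 of the 2 transcripts of that gene, one annotated as noncoding. Tachykinin (Tk), a peptide of brain and gut in insects, measured 2.802 to 5.07 CPM against 0.0545 to 0.144 CPM (logFC 5.47), its receptor LOC411611 6.37 to 13.3 CPM against 0.132 CPM or less (logFC 7.10), and corazonin (Crz), a stress and caste-linked hormone, 2.32 to 4.71 CPM against 0.0819 CPM or less (logFC 6.69). Short neuropeptide F (LOC100576163), a feeding peptide, was higher in the ventriculus, with 22.6, 16.9, 16.7, 10.3 and 17.4 CPM in the brain against 66.9, 69.7, 69.0, 64.8 and 63.7 CPM. Its 5 ventriculus libraries lay within a narrow band and above every brain (logFC −2.03, SE 0.15, adjusted p = 1.8e-05, and −0.28 with the library size only, adjusted p = 0.33). The allatostatin C receptor (LOC412883) had 0.0171 to 0.224 CPM in the brain and 1.58 to 3.33 CPM in the ventriculus (logFC −4.53). Allatostatin A (Apime-ASTA) had 23.9 to 50.8 CPM in the brain and 12.7 to 31.4 CPM in the ventriculus, where the organs overlapped (logFC 1.10, adjusted p = 0.022), and it did not pass without P1, P8 or P24, at 0.88, 0.88 and 1.07. Pban, the precursor of pheromone biosynthesis activating peptides, measured 4.12 to 10.04 CPM in the brain and 0.230 to 0.370 CPM in the ventriculus apart from 27.0 CPM in P24. The logFC was 3.62 (adjusted p = 0.023), it rose to 4.72 without P24, it did not pass without P1, P7 or P8, at 3.16 to 3.21, and the fit without pairing gave 0.55 (adjusted p = 0.69).

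Of the 4 opsins, the light-absorbing proteins of photoreceptors, 3 were higher in the brain, against 43.1% of all transcripts. Lop1, the long-wavelength opsin of the compound eye, measured 232, 255, 287, 7187 and 632 CPM in the brain against 0.136 to 1.80 CPM in the ventriculus (logFC 10.55, SE 0.50, adjusted p = 2.4e-06). Blop, the blue opsin, measured 26.3, 29.6, 21.8, 192 and 26.0 CPM against 0.201 to 0.654 CPM (logFC 6.74, and 6.15 without P11), and Lop2, an opsin of the ocelli, 4.80, 7.13, 4.99, 72.1 and 19.4 CPM against 0.345 CPM or less (logFC 6.18, and 5.36 without P11). The brain of P11 was the highest for all of them. For Uvop, the ultraviolet opsin, the organs overlapped, with 27.3, 31.5, 29.9, 315 and 44.5 CPM in the brain and 29.5 to 56.2 CPM in the ventriculus (logFC 0.28, adjusted p = 0.59), and the sign turned to −0.16 without P11.

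Detoxification genes were called in both directions, and the enzymes known to break down neonicotinoids were among them. Of 11 cytochrome P450 genes with a name, 8 were tested, 3 were higher in the brain and 4 in the ventriculus, with a median logFC of −0.70, against 43.1% and 36.7% of all transcripts. With the library size only the counts were 4 and 3 and the median was 1.04. The CYP9Q subfamily degrades neonicotinoids in the honey bee, and its 3 genes lay in 3 different positions. CYP9Q1 (LOC410492) measured 18.2, 36.9, 25.6, 77.9 and 33.3 CPM in the brain and 13112, 12604, 15502, 8448 and 22521 CPM in the ventriculus. Every ventriculus library was over 100-fold above every brain library, at a logFC of −8.70 (SE 0.58, adjusted p = 1.0e-05). CYP9Q2 (LOC408452) was measured at a high level in both organs, with 1038, 1060, 1114, 826 and 1132 CPM in the brain and 3363, 1618, 3319, 2337 and 2017 CPM in the ventriculus. The libraries did not overlap with TMM scaling (logFC −1.24, SE 0.20, adjusted p = 8.1e-04), but with the library size only the logFC was 0.50 (adjusted p = 0.092). CYP9Q3 (LOC408453) did not separate the organs, with 475, 523, 462, 565 and 481 CPM in the brain and 878, 384, 1048, 673 and 219 CPM in the ventriculus. Its brain values were even while its ventriculus values spread over more than 4-fold, and the logFC of −0.15 (SE 0.34, adjusted p = 0.69) turned to 0.04 without P1, to 0.11 without P8 and to 1.57 with the library size only.

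The other P450 genes with large differences pointed both ways. The probable P450 6a14 (LOC107965400) measured 685, 961, 488, 576 and 1105 CPM in the ventriculus and had 2 counts in the 5 brains, both in P8. The ratio of the organs was 157964 with an exact counting interval of 43729 to 1304359. CYP6AS11 (LOC724946) had 292, 143, 213, 423 and 91.4 CPM in the ventriculus and 0.0589 to 0.324 CPM in the brain apart from 7.55 CPM in P11 (logFC −8.88, and −9.87 without P11). CYP6AS13 (LOC551028), of the same subfamily, was higher in the brain, with 647, 887, 766, 620 and 598 CPM against 99.7, 67.3, 92.4, 152 and 88.6 CPM (logFC 2.85, SE 0.24, adjusted p = 3.2e-05). CYP15A1 (LOC551179), which in other insects makes juvenile hormone in the corpora allata, glands attached to the brain, had 27.1, 12.6, 21.4, 12.3 and 7.96 CPM in the brain and 0.0545 to 0.374 CPM in the ventriculus (logFC 6.71, SE 0.52, and 7.34 without P7). Of the glutathione transferases, which attach glutathione to reactive compounds, GstD1 and GstS1 were tested and were both higher in the ventriculus. GstD1 measured 2.12 to 8.92 CPM there against 0.120 CPM or less (logFC −6.64), and GstS1 2.76 to 3.85 CPM against 0.308 to 0.511 CPM (logFC −2.84). Both have several transcripts, so that these levels hold only the fragments assigned to 1 of them. A second GstD1 transcript, NM_001178028.1, was higher in the brain, with 0.549 to 1.35 CPM against 0.245 to 0.655 CPM (logFC 1.28, adjusted p = 0.019), and it did not pass without P1, P7 or P24, at 1.17, 1.18 and 1.03, while the sum over the GstD1 transcripts gave −2.35.

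**Figure D4:**
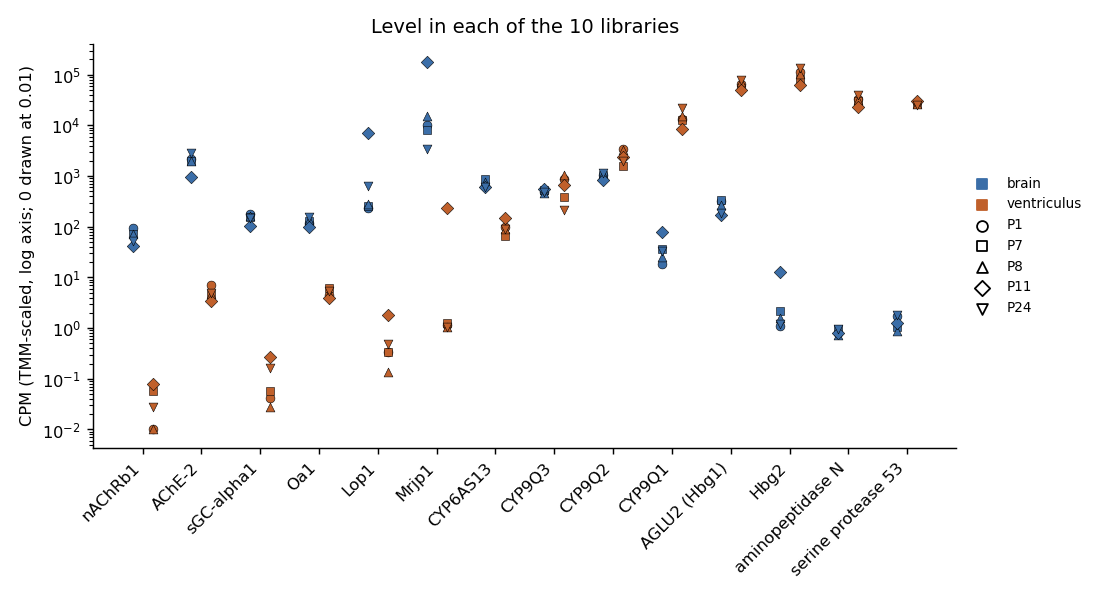
CPM after TMM scaling (log axis, 0 drawn at 0.01) of 14 genes in each of the 10 libraries, brain in blue and ventriculus in orange, with 1 marker shape for each patriline. CYP9Q3 overlaps between the organs, CYP9Q2 lies higher in the ventriculus with this scaling, and P11 is the highest of the 5 brains for Lop1, Mrjp1, CYP9Q1 and Hbg2.

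The immune list was called in both directions at close to the shares of all transcripts, 43.1% in the brain and 36.7% in the ventriculus. Of the 10 genes of the list all were tested, 4 were higher in the brain, 3 in the ventriculus and 3 did not pass, with a median logFC of 0.42, and with the library size only 8 were higher in the brain and 1 in the ventriculus. B-gluc1 was among those higher in the brain (logFC 1.58, adjusted p = 0.045) and did not pass without P1, P7, P8 or P11, at 1.19 to 1.58, and was 2.25 without P24. Defensin 1 (Def1), an antimicrobial peptide that bees also add to royal jelly from their head glands, measured 159, 75.7, 139, 1492 and 55.8 CPM in the brain pools and 7.66, 9.55, 2.78, 19.8 and 0.573 CPM in the ventriculus (logFC 5.12, SE 0.59, adjusted p = 1.7e-04). Its highest brain value was again in P11, the library with the most royal jelly RNA, and the part of gland RNA in this difference was not tested. Defensin 2 (Def2) was low but even, at 1.30 to 1.84 CPM against 0.0848 CPM or less (logFC 5.44, and 6.05 without P1). Apidaecin (Apid1), another antimicrobial peptide, varied within both organs, with 1.98, 37.9, 3.85, 32.6 and 3.60 CPM in the brain and 49.8, 52.5, 14.7, 95.5 and 6.03 CPM in the ventriculus. It was higher in the ventriculus in all 5 pairs (logFC −1.76, SE 0.60, adjusted p = 0.029), but did not pass without P8 (−1.71, adjusted p = 0.077) or without pairing (−1.45, adjusted p = 0.17), and was −0.06 with the library size only. The recognition protein Pgrp-s2, which binds bacterial peptidoglycan, had a logFC of −6.71, and of −7.76 without P11. In the Toll pathway the most abundant transcript of the transcription factor Dl had a logFC of 0.70, another, XM_006566998.3, one of −2.14 (adjusted p = 1.1e-04), and its inhibitor cact1 one of −0.93, which became 0.81 with the library size only.

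Hormone genes were called in both directions. Of 13 genes for juvenile hormone, ecdysteroid and insulin signalling 11 were tested, 3 were higher in the brain and 5 in the ventriculus, with a median logFC of −0.45, against 43.1% and 36.7% of all transcripts, and with the library size only the counts were 9 and 1. Juvenile hormone esterase (Jhe), which inactivates the hormone, measured 92.2, 310, 117, 159 and 279 CPM in the ventriculus and 6.89 to 16.2 CPM in the brain (logFC −4.33, SE 0.36, adjusted p = 3.4e-05). JHBP-1, a juvenile hormone binding protein, did not pass (logFC −1.79, SE 0.85, adjusted p = 0.090). It had 56.0, 309, 59.5, 579 and 98.5 CPM in the ventriculus and 56.3, 57.0, 79.7, 16.5 and 20.6 CPM in the brain, with P7 and P11 the highest in the ventriculus, and it passed without P8 (−2.42) and without pairing (−2.26). With all pairs JHBP-1 also passed in DESeq2 (−1.76, adjusted p = 0.012), limma voom (−1.88, adjusted p = 0.047) and the likelihood ratio test (−1.79, adjusted p = 0.029). For the ecdysteroid receptor Ecr and the response genes E75 and Kr-h1 the most abundant transcript was at −0.61, −0.74 and −0.45 with TMM and at 1.14, 1.01 and 1.29 with the library size only. That of Kr-h1 is annotated as noncoding. E75 did not pass without P1, P7, P8 or P24, at −0.52 to −0.85, nor Kr-h1 without P1 or P7, at −0.36. Other transcripts of Ecr and E75 were higher in the brain. NM_001159355.1 of Ecr measured 16.3 to 23.3 CPM against 2.24 to 3.99 CPM (logFC 2.57, adjusted p = 1.7e-06), and the sum over the Ecr transcripts did not pass (−0.038, adjusted p = 0.75). XM_006564318.3 of E75 measured 0.615 to 1.91 CPM against 0.132 CPM or less (logFC 4.73, adjusted p = 0.0011, and 5.71 without P11). E74, another ecdysteroid response gene, was higher in the brain, with 21.8, 18.2, 19.1, 12.9 and 16.7 CPM against 0.164 to 0.721 CPM (logFC 5.79, SE 0.31), and the insulin receptor InR-2 was as well, with 1.00 to 1.32 CPM against 0.273 to 0.518 CPM (logFC 1.59). The 4 ribosomal protein genes that were tested, RpLP1, RpL35, Rpl41 and Rpl39, had logFC of −1.99, −2.16, −2.41 and −0.998 with TMM, of which Rpl39 became 0.74 with the library size only and RpLP1 −0.25 (adjusted p = 0.21).

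Markers of other organs in the dissections were measured beside these results. Of 7 head gland genes 5 were tested and all 5 were higher in the brain, against 43.1% of all transcripts. In the brain Mrjp1, the main protein of royal jelly, measured 10129, 8269, 15347, 175738 and 3479 CPM against 1.17, 1.24, 1.06, 239 and 1.04 CPM in the ventriculus (logFC 12.20, SE 0.92, and 12.91 without P11). One of the 5, Mrjp7 (logFC 1.95, adjusted p = 0.021), did not pass without P7 (1.99, adjusted p = 0.055) or P8 (1.81, adjusted p = 0.067). Royal jelly transcripts are made in the hypopharyngeal glands and have also been found in the bee brain, and the counts do not tell these sources apart. Fat body genes, the bee counterpart of liver genes, were higher in the ventriculus for 3 of 5 tested, against 36.7% of all transcripts. Of these, the storage protein HEX70b turned from −0.66 to 1.10 with the library size only and did not pass without pairing (−0.58, adjusted p = 0.086). Hex70a, a storage protein, measured 300, 213, 191, 499 and 84.1 CPM in the ventriculus and 10.4, 19.4, 12.0, 262 and 9.27 CPM in the brain (logFC −3.34, adjusted p = 0.0012, and −2.04 without pairing, adjusted p = 0.080). The yolk precursor vitellogenin (Vg) measured 143, 49.9, 105, 123 and 17.7 CPM in the ventriculus and 6.77 to 18.0 CPM in the brain apart from 281 CPM in P11 (logFC −1.85, adjusted p = 0.062), and it passed without P11, at −2.48. With all pairs Vg passed in DESeq2 (−1.82, adjusted p = 0.0049) and the likelihood ratio test (−1.85, adjusted p = 0.014). The exception of that list was transferrin Tsf1, an iron carrier, with 2875, 3277, 3144, 3934 and 3158 CPM in the brain and 76.1 to 420 CPM in the ventriculus (logFC 4.21, SE 0.37). The hemocyte marker PPO, a prophenoloxidase, did not pass in the paired quasi-likelihood test of all 5 pairs (logFC 0.73, adjusted p = 0.082), with 137 CPM in the brain of P11 and 19.1 to 35.3 CPM in the other brains, and passed without P11 at 0.39. With all pairs PPO passed in DESeq2 (0.76, adjusted p = 0.039), limma voom (0.91, adjusted p = 0.045) and the likelihood ratio test (0.73, adjusted p = 0.043). It also passed with upper-quartile scaling (0.87, adjusted p = 0.043) and without pairing (1.14, adjusted p = 0.049). The glial markers Eaat-2 and GlnS were both higher in the brain. In bulk pools of this kind fewer cells of a type and less RNA per cell cannot be told apart.

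With TMM scaling and the main filter, long noncoding RNA was called higher in the brain more often than in the ventriculus. Of 1276 long noncoding transcripts tested, 681 (53.4%) were higher in the brain and 325 (25.5%) in the ventriculus, with a median logFC of 0.94, against 41.6% and 38.5% of 8549 protein-coding transcripts, with a median of 0.07. These counts by class were not repeated with another scaling or filter. For all transcripts the median logFC was 0.33 with no filter, 0.15 with the main filter and 0.058 with the stricter filter. The other noncoding classes were small and differed among themselves, with 3 of 8 rRNA features higher in the ventriculus, 4 of 12 tRNA features higher in the brain and 6 in the ventriculus, and 7 of 10 snRNA features higher in the brain and 1 in the ventriculus. Long noncoding transcripts took 4.61% ± 0.946 of brain counts and 1.52% ± 0.0761 of ventriculus counts (SD, n = 5, exact p = 0.0625). These are shares of unscaled counts. TMM divides levels by factors of 1.28 to 2.01 in the brains and 0.499 to 0.626 in the ventriculus libraries, so this gap does not carry over to TMM-scaled levels. A single RNA held much of the brain share. Ancr-1, a nuclear noncoding RNA first described in bee brains, measured 10597, 10929, 12281, 14841 and 14840 CPM in the brain and 5888, 5577, 5314, 5676 and 5912 CPM in the ventriculus (logFC 1.15, SE 0.17, adjusted p = 5.4e-04). It took 2.32% of brain counts, and it was abundant in both organs. A feature of the mitochondrial genome took 5.29% of brain counts and had a logFC of −0.30 (adjusted p = 0.23) with TMM and of 1.45 with the library size only. It passed in DESeq2 (−0.27, adjusted p = 6.1e-05) and limma voom (−0.30, adjusted p = 0.0065).

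MicroRNA genes are listed in the files as hairpin and mature features, and the values are fragments of total RNA assigned to them, which do not measure the mature microRNA. Of 486 such features 56 were tested, 29 (51.8%) were higher in the brain and 12 (21.4%) in the ventriculus, against 43.1% and 36.7% of all transcripts tested, and with the library size only the counts were 48 and 5. Those higher in the ventriculus were led by a pair of neighbours in the RefSeq table, Mir750 and Mir1175. The Mir1175 feature measured 6.34, 6.53, 6.60, 7.92 and 8.51 CPM in the ventriculus with 0 counts in the 5 brains, at least 996-fold higher with a floor of 3 counts over the group, and Mir750 measured 8.69, 10.1, 9.69, 9.29 and 11.7 CPM with 2 brain counts, a ratio of 2053 with an exact counting interval of 568 to 16955. Both were even over the patrilines. On the brain side Mir3764 measured 9.80, 7.94, 8.45, 4.95 and 9.996 CPM with 0 counts in the ventriculus, at least 549-fold higher, and Mir6058 measured 24.9, 21.4, 21.8, 14.2 and 30.9 CPM with 5 ventriculus counts (logFC 9.67, SE 0.27). Mir6053, with a logFC of −3.79, and Mir6037, with one of 3.09, were counted in both organs.

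What could be compared depended on how many transcripts a gene has, because fragments that fit several transcripts were counted on none. Of 5049 protein-coding genes with 1 transcript, 94.2% had a tested transcript and the median gene had 20285 counts over the 10 libraries. Of 3113 genes with 2 or 3 transcripts, 46.4% were tested, the median gene had 70 counts and 692 had 0. The direction of the calls moved along with this number. Transcripts of single-transcript genes were higher in the brain in 36.0% and in the ventriculus in 46.4%, while for the 269 genes with at least 10 transcripts these shares were 59.8% and 25.3%. Median logFC went from −0.15 through 0.35 and 0.80 to 1.30 over genes with 1, 2 to 3, 4 to 9 and at least 10 transcripts. Whether this follows the genes themselves or the counting was not tested. Many neuronal genes of the lists have several transcripts, 28 for pHCl and 34 for Cac, and the levels given for such genes are those of the single transcript with the highest mean.

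For some genes the 2 organs also differed in which transcript was counted. Of 915 genes with at least 2 tested transcripts, 148 (16.2%) had 1 transcript called higher in the brain and another called higher in the ventriculus, 80 of them with both beyond 2-fold, and 48 also held opposite calls with the library size only. Of all transcripts tested, 43.1% were called higher in the brain and 36.7% in the ventriculus, so unrelated transcripts would often be called oppositely too. Their share was not computed, and 16.2% is therefore no measure of transcript choice. Shares between the pair of transcripts of a gene do not depend on the scaling. For the actin-bundling protein plastin-2 (LOC408694), the transcript XM_392230.7 took 98.7% to 99.6% of the counts of the pair in the brains and 11.3% to 29.3% in the ventriculus, where XM_016910864.2 took the rest. For the protein neuralized (LOC724242), a ubiquitin ligase of the Notch pathway, the share of XM_001120035.5 was 98.2% to 99.6% in the brain and 22.2% to 42.1% in the ventriculus. In both genes no library of an organ reached the range of the other, which follows in part from picking genes with opposite calls. For the endothelin-converting enzyme homolog (LOC408500), placed with the brain above by its most abundant transcript, XM_392043.7 held 94.5% to 96.8% in the brain, while XM_006565637.3 measured 9.17 to 12.1 CPM in the ventriculus against 1.06 to 1.95 CPM in the brain (logFC −2.97). The broad-complex gene (LOC411126), whose isoforms differ in their zinc fingers and act in the ecdysteroid response, had XM_006570212.3 at 85.4% to 90.9% in the brain and 30.6% to 34.6% in the ventriculus. The translation factor Eif4g had XM_026441106.1 at 84.0% to 87.8% and 12.1% to 17.8%. Arginine kinase (Argk), which buffers ATP in tissues of high energy use, kept the same leading transcript in both organs, XM_006559180.3, at 94.3% to 96.6% in the brain and 70.5% to 79.3% in the ventriculus.

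**Figure D5:**
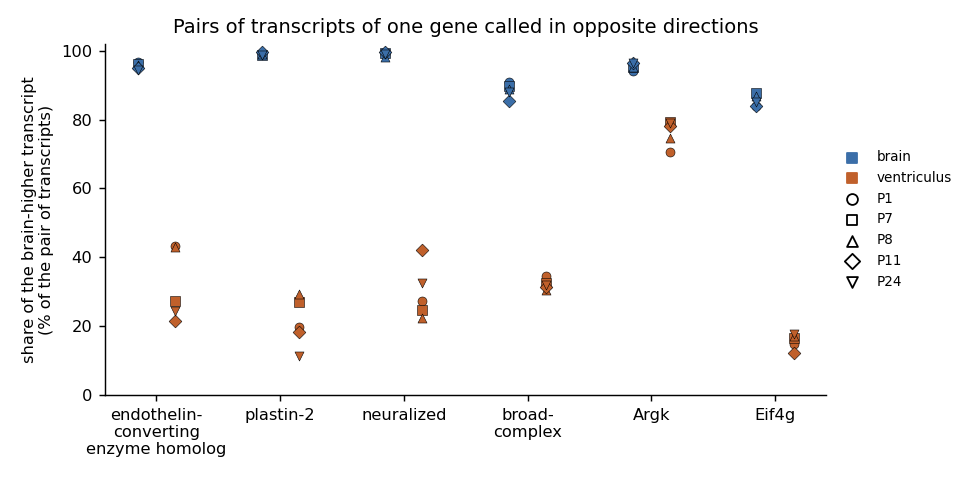
Share (%) of the transcript that was higher in the brain among the counts of 2 transcripts of a gene called in opposite directions, for 6 genes in each of the 10 libraries, brain in blue and ventriculus in orange. The organs do not overlap for any of the 6 genes, which follows in part from picking genes with opposite calls. For Argk the ventriculus keeps 70.5% or more of the brain transcript.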

How the data were processed

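Paired-end RNA sequencing (Illumina Stranded Total RNA Prep) was done on 18 pools of 3 tissues. The authors used Trimmomatic for trimming, STAR for alignment and HTSeq for counting. The deposited values are raw counts per transcript, without normalization, and versions, annotation and the strand setting of HTSeq were not given in the sources used here, so that antisense, overlapping and near-identical genes are uncertain. The paper names Amel_4.5, while 27887 of 28396 features matched a RefSeq table of Amel_HAv3.1 by accession and 324 by gene name (185 kept their own names), so no coordinates or sequences are printed. HTSeq's classes of uncounted fragments entered neither library sizes nor tests: ambiguous fragments were 30.9% to 50.3% of the total, those with no feature 6.26% to 17.6% and those aligned to several places 1.47% to 2.10%.

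Of the 18 libraries 10 were used. The P21 pair and the tubule libraries entered only alternatives and the trace measure, which took transcripts at 100 CPM or more in every source library and at 5% or less of the source median in the other tissue. Transcripts were filtered with filterByExpr (minimum count 10, total 15), scaled by TMM and fitted with patriline and tissue as terms in edgeR 4.0.16 (glmQLFit, glmQLFTest, R 4.3.3), with Benjamini-Hochberg adjustment over all 9955 transcripts tested and a threshold of 0.05. Standard errors are the logFC divided by the root of its F statistic. The script was tested on simulated data in which few transcripts changed, equally in both directions, and without patriline effects. Most transcripts were called in the real data, so that test does not cover the scaling or the split between directions. Pairing comes from the same bees giving both organs. Deviations of the paired libraries from their tissue means correlated at 0.0911 to 0.213 for the same patriline and at −0.148 to 0.0631 for different ones. Pools are of separate patrilines of 1 colony, so p-values measure the spread among these. At this depth counting error is small above a few CPM, and the 5 pools limit the precision. Intervals and floors cover counting error only.

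A gene with several transcripts is represented by that with the highest mean CPM. Named were examples from each list, the 10 named genes with the largest logFC in each direction (at least 50 CPM in the higher tissue, 1 sign in all pairs), the 5 with the largest share of counts in each tissue, the 5 with the most variable paired difference and the genes named by the study, apart from a few, among them the microRNA and opposite-transcript examples, that were chosen after their values were seen. Members and lists were chosen with earlier results of these data known. Alternatives were the fit without pairing, other scalings, DESeq2 1.42.0, limma 3.58.1 (voom), the likelihood ratio test, other filters, gene sums, thinning, P21 added, 15 libraries of 3 tissues, and each patriline left out.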

Additional observations from a re-analysis of the deposited data

Results flagged for a closer look

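Levels of the named transcripts were compared within each organ on a log2 scale, in 213 groups of 5 libraries with a mean of at least 1 CPM, and in 25 of them the highest or lowest library lay far from the other 4 (gap over 0.71 of the range). Chance flags about 1 in 20 groups. Of the 25, 17 were the brain of P11. It was the highest brain for Uvop (315 CPM, the others 27.3 to 44.5), Blop (192, 21.8 to 29.6), Vg (281, 6.77 to 18.0), Hex70a (262, 9.27 to 19.4), RpL35 (238, 113 to 140), LOC410211, a LIM domain protein (31.1, 1.39 to 2.63), Jhe (16.2, 6.89 to 7.70), Hbg2 (13.02, 1.11 to 2.14) and Syt20 (3.79, 0.519 to 0.733).

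The same brain was the lowest for LOC725960 (5058 CPM, the others 8977 to 10470), CYP9Q2 or LOC408452 (826, 1038 to 1132), Mir6037 (27.5, 42.7 to 47.3), Apime-ASTA (23.9, 44.0 to 50.8), LCCH3 (4.85, 8.72 to 9.97), LOC411611 (6.37, 11.6 to 13.3), Pban (4.12, 8.27 to 10.04) and Tk (2.802, 4.33 to 5.07). Another brain, that of P24, was the highest for Dl (20.8, 13.1 to 14.8).

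In the ventriculus, P11 was the highest library for Mrjp1 (239 CPM, the others 1.04 to 1.24) and Mrjp3 (44.2, 0.300 to 1.09) and the lowest for LOC724199 (224772, 296883 to 316945). P24 was the highest for Pban (27.0, 0.230 to 0.370), P8 the highest for LOC410729 (1243, 875 to 944) and the lowest for Dop1 (2.76, 3.03 to 3.13), and P7 the lowest for Mrjp7 (17.5, 44.8 to 59.6).

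In a library that the comparison did not use, the brain of P21, tubule transcripts stood at a median of 15.39% of their tubule level, against 0.376% to 0.543% in the 5 brains used.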

How the results depend on the processing

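The number of transcripts called lay between 6391 (stricter filter) and 8809 (library size only) over the alternatives with all 5 pairs, and between 7465 and 8201 with 1 patriline left out (4022 to 4583 higher in the brain, 3443 to 3618 in the ventriculus, 5372 to 5873 beyond 2-fold). The fit without the patriline as a replicate block called 7885. Without P11, 7729 of the 7946 calls remained. With the library size only, 7879 were higher in the brain and 930 in the ventriculus. All of these 930 were ventriculus calls before, and 1672 ventriculus calls became brain calls. Of 141 named transcripts, 108 kept their direction and call in those of the other 18 alternatives that tested them. For the others, the text gives some of the changes of call, not all of them. With the stricter filter 128 of the 141 were unchanged and 1 lost its call, and the rest were not tested there.

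With the library size only the sign turned for the mitochondrial feature (1.45), JHBP-1 (0.066), CYP9Q2, LOC408452 (0.50), CYP9Q3, LOC408453 (1.57), pHCl (0.86), Syx1A (0.71), Mblk-1 (0.89), For (0.62), Foxp (0.19), HEX70b (1.10), Syt1 (0.64), Syt20 (1.01), cact1 (0.81), Ecr (1.14), E75 (1.01), Kr-h1 (1.29), Rpl39 (0.74), the Argk transcript XM_006559182.3 (0.19) and fatty-acid amide hydrolase 2-B, LOC551094 (0.96, −0.78 with TMM). It also turned for LOC408453 without P1 (0.04) or P8 (0.11), in a range of −0.47 to 0.11 with 1 patriline left out, and for Uvop without P11, in a range of −0.16 to 0.51. Adding counts up per gene turned the transcript that went against the sum, in LOC408694 (1.50), LOC408500 (1.05), LOC724242 (0.46), LOC411126 (−0.25), Argk (0.89), Eif4g (−0.71), Ecr (−0.038), E75 (−0.75), Dl (0.45) and GstD1 (−2.35). The last alternative sums over opposite transcripts by construction. The cause of the others was not tested.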

Other observations

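Melt, the gene of melittin, the main peptide of bee venom, measured 2.59, 14414, 2.67, 429 and 0.763 CPM in the ventriculus of P1, P7, P8, P11 and P24 and 0.444 to 0.733 CPM in the brains. It was therefore present at a high level in only 2 of the 5 ventriculus pools, the venom gland lies in the abdomen next to the hindgut, and the difference between the organs did not pass (logFC −4.27, SE 2.52, adjusted p = 0.16, from −6.53 to −2.87 with 1 patriline left out and −12.30, adjusted p = 0.0029, without pairing). With all pairs the difference passed in DESeq2 (−3.83, adjusted p = 0.020) and limma voom (−11.62, adjusted p = 6.5e-04). Whether venom gland tissue came with those 2 ventriculus pools was not tested. Among other transcripts with uneven pairs, LOC410211, a LIM domain protein, measured 52.2 to 138 CPM in the ventriculus and 1.39 to 2.63 CPM in the brain apart from 31.1 CPM in P11 (logFC −5.14, and −5.83 without P11).

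Cuticle genes, for the proteins of the exoskeleton and of the lining of tracheae and gut ends, were called in both directions. Of 27 genes 22 were tested, 10 were higher in the brain and 4 in the ventriculus, against 43.1% and 36.7% of all transcripts, with a median logFC of 1.42, without P11 the counts were 13 and 4 of 23, and with the library size only 18 were higher in the brain. CPR3 measured 16.4, 12.2, 13.2, 12.2 and 13.4 CPM in the brain and 0.0424 to 0.604 CPM in the ventriculus (logFC 5.13, SE 0.50, adjusted p = 6.8e-05), while CPR22 measured 0.805 to 11.8 CPM in the brain and 5.34, 17.5, 7.34, 86.4 and 15.9 CPM in the ventriculus (logFC −2.21, adjusted p = 0.0058, and −0.49 with the library size only). Of 7 troponin genes, markers of muscle, 5 were tested, 0 were higher in the brain and 2 in the ventriculus, against 43.1% and 36.7% of all transcripts. The median logFC was −0.43, and with the library size only 3 were higher in the brain and 2 in the ventriculus. TpnCI had a logFC of −3.19 and TpnI one of −2.72, while TpnCIIIa (−0.43), TpnCIIIb (0.08) and TpnCIIb (0.35) did not pass.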
